A study of Homo sapiens with 12 samples.

Results

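Immediate early genes are switched on within minutes of a signal, from promoters that need no new protein, and many of their mRNAs are short-lived. In the ribotoxic stress response, stalled or colliding ribosomes activate the kinase ZAK, which turns on the p38 and JNK kinases, and these act on transcription factors at immediate early promoters. The 10 genes followed here were chosen by name as a set known from that response, with earlier results of these data known. They encode AP-1 proteins that bind DNA in pairs (JUN, JUNB, JUND, FOS and the related ATF3) and the zinc-finger transcription factors EGR1 and KLF6. The others encode the growth regulator MYC, the phosphatase DUSP1, which switches off p38 and JNK, and the survival factor IER3.

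The cells were wild-type HEK293T Flp-In, a human embryonic kidney line with a built-in site for transgenes. For 2 h they received DMSO, the solvent, or girolline, a sponge natural product that the series title ties to the translation factor eIF5A, at 1 µM (the low dose) or 10 µM (the high dose). Every group was grown with serum and antibiotics. There were 12 libraries of 3 kinds: poly(A) RNA-seq for mRNA level, monosome footprints (fragments covered by 1 ribosome) and disome footprints (longer fragments covered by a pair of adjoining ribosomes). In each kind there was a DMSO pair and 1 library of either dose. RNA-seq libraries held 28424272 to 42194871 counts, monosome libraries 21570489 to 38074691 and disome libraries 3091715 to 5769026. The labels do not tell whether the DMSO pair were separate cultures, and the p-values then cover only the spread between these libraries, which may be technical.

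The genes were taken by Ensembl transcript ID, as 10 of 100283 coding transcripts in the monosome tables: JUN (ENST00000371222.4), JUNB (ENST00000302754.6), JUND (ENST00000252818.5), FOS (ENST00000303562.9), ATF3 (ENST00000341491.9), EGR1 (ENST00000239938.5), KLF6 (ENST00000497571.6), MYC (ENST00000621592.7), DUSP1 (ENST00000239223.4) and IER3 (ENST00000259874.6). All 10 had the coding length of the protein named. The RNA-seq and disome tables use UCSC IDs, so their rows were found by aligning coding lengths in file order, which paired 76301 transcripts, 76.1% of the monosome and 81.2% of the other coding rows. Around the members, 8 to 20 of 20 neighbouring rows were paired as well, fewest for EGR1 (8), IER3 (10), MYC (12) and DUSP1 (13). For 8 members no other row of the same length lay within 20 rows, and ATF3 and MYC had a second such row with the same counts. IER3 was paired through an alternative alignment of equal length. The names of the RNA-seq and disome rows therefore rest on length and position. Across 40828 paired transcripts, RNA-seq and monosome levels per codon with DMSO had a Spearman correlation of 0.842, a description only, since a transcript shares its length in both.

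Promoters are shown for 4 members picked by their values, and promoter activity was not measured. JUN, DUSP1 and EGR1 had the highest mRNA rises among the members, and JUND rose in monosome footprints without a called mRNA rise. Without RNA-seq DMSO 2, the log2 rise of EGR1 was 1.43, below ATF3 at 1.67. The promoters come from RefSeq on GRCh38.p14, which held windows for 8 of the 10 genes (not MYC or IER3), and each covers 250 bases before and 50 from the annotated start. Capitals mark TGACATCA in JUN, a binding sequence of JUN and ATF family dimers, the CArG boxes of EGR1, which serum response factor binds, TGACGTCA, the cyclic AMP response element, in DUSP1 and JUND, and TATAAA in DUSP1.
JUN promoter, chr1:58783998-58784297, minus strand: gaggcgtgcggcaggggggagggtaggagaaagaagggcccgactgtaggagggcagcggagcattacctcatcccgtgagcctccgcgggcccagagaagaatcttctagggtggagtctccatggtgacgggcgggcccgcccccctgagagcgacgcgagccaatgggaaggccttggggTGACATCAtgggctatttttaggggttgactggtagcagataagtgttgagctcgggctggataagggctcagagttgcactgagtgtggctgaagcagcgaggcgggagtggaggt
EGR1 promoter, chr5:138465229-138465528, plus strand: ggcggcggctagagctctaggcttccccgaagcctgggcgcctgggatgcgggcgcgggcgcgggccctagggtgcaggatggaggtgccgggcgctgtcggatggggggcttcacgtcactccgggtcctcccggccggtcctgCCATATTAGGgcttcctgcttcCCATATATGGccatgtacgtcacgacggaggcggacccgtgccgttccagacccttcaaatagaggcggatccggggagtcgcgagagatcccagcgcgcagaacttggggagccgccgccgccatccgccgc
DUSP1 promoter, chr5:172771146-172771445, minus strand: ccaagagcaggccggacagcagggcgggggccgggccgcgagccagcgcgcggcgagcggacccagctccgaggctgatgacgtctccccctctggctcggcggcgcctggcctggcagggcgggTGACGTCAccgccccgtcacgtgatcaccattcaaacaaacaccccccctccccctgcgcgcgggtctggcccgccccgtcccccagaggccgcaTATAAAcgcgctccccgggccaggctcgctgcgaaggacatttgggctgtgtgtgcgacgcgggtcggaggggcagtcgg
JUND promoter, chr19:18281573-18281872, minus strand: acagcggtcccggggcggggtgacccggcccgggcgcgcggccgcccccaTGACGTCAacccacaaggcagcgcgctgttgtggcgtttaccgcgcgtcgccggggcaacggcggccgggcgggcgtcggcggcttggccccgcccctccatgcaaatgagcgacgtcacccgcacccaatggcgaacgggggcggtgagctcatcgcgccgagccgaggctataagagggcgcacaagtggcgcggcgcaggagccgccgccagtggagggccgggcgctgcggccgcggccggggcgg

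The JUN match begins at -67 from the start, and the CArG boxes of EGR1 begin at -105 and -83. TGACGTCA begins at -125 in DUSP1 and at -200 in JUND. The motifs were chosen with the sequences in view and searched on both strands. TGACATCA was found for 3 of the 8 genes (JUN, ATF3 and KLF6) and in 2.61% of 35116 promoters of the same length, and TGACGTCA for 2 genes (DUSP1 and JUND) and in 1.85%. A CArG box was found for 1 gene (EGR1) and in 1.29%, TATAAA for 4 genes (ATF3, DUSP1, FOS and JUNB) and in 11.5%, and the AP-1 sequence TGACTCA for 0 genes and in 4.95%. ATF3 has 2 windows in the table, and either could hold its match. A match describes letters only.

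With DMSO, the members spanned a wide range of levels. Levels are TMM-scaled CPM (read counts scaled to library size), and between genes they are compared per 100 counted codons. In RNA-seq, MYC led at 13.8 and 17.4 CPM per 100 codons in the DMSO pair, JUN followed at 8.57 and 11.9, and JUND at 4.11 and 7.20. EGR1, at 0.467 and 0.895, and FOS, at 0.413 and 0.823, were lowest, and their ranges overlapped. In monosome footprints JUN led at 18.1 and 18.2 CPM per 100 codons, above MYC at 10.5 and 11.5, and in disome footprints JUN led at 36.9 and 38.5, above MYC at 16.0 and 17.6. The ranges of JUN and MYC did not overlap in any kind. DUSP1, ATF3 and JUNB followed in monosome footprints, at 2.64 and 2.67, 1.95 and 2.40 and 2.09 and 2.13, where ATF3 and JUNB overlapped.

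Monosome footprints per mRNA differed among the AP-1 genes. With DMSO, the log2 ratio of monosome to RNA-seq level per codon was highest for JUN, at 0.83, percentile 91.5 among 40828 transcripts. From the means of the DMSO pair it was lowest for FOS and JUND, at -1.95 and -1.94, percentiles 8.91 and 8.93, and EGR1 had -1.40. Monosome counts in the DMSO pair were 8 and 23 for FOS and 28 and 42 for EGR1. RNA-seq DMSO 1 lay 1.99-fold above DMSO 2 for FOS, 1.92-fold for EGR1 and 1.75-fold for JUND. The order of FOS, JUND and EGR1 is therefore not settled. The median of all was -0.43, and 4 of 10 members lay above it. Of disome to monosome level, the log2 ratio was highest for IER3, at 2.32 and percentile 98.6, followed by FOS at 1.13, from 4 and 5 disome counts, JUN at 1.11 and MYC at 0.66. DUSP1 was lowest, at -0.85, against a median of -0.32 over all transcripts, and 8 members lay above that median. The IER3 ratio rests on 28 and 35 disome and 35 and 54 monosome counts in the DMSO pair. It also rests on a disome row paired through an alternative alignment, so a mismatch of rows was not excluded. The kinds count slightly different parts of a coding region, and no test was made of these ratios.

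**Figure D1:**
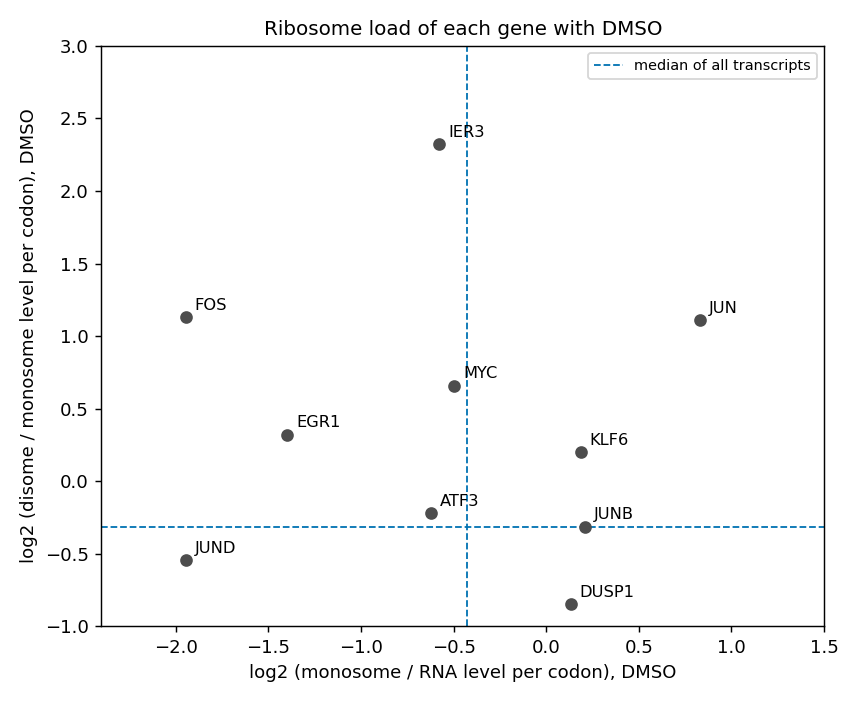
Footprint ratios of the 10 genes with DMSO. The x axis is the log2 ratio of monosome to RNA-seq level per counted codon and the y axis that of disome to monosome level, each from the mean of the DMSO pair. Dashed lines are the medians of 40828 transcripts, -0.43 and -0.32. IER3, whose RNA-seq and disome row was paired through an alternative alignment of equal length, stands highest at 2.32.

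The first comparison asked how the high dose changed mRNA levels. Of the 10 mRNAs, 8 rose and 0 fell: JUN, JUNB, FOS, ATF3, EGR1, KLF6, MYC and DUSP1. JUND and IER3 did not pass the test. Over all 56229 RNA-seq rows tested, 0.537% were called higher and 0.571% lower by edgeR's quasi-likelihood test at a false discovery rate (FDR) of 0.05. The members' median log2 fold change was 1.47, against -0.01 over all rows. Of the members, 9 lay above both DMSO libraries, as did 35.3% of all rows, and 7 lay over 2-fold above both, as did 0.738% of all rows. In bulk libraries, a change in the number of cells that hold an mRNA and a change in its amount per cell cannot be told apart.

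JUN mRNA measured 37.0 and 26.7 CPM in the DMSO pair, 31.8 in the low-dose and 185 in the high-dose library. The high-dose library alone left the DMSO range, at 5.80 times the DMSO mean. JUN forms AP-1 with FOS or with itself and is the classic substrate of JNK. At the high dose JUN changed by 2.54 (SE 0.18, adjusted p = 5.05e-42 by edgeR) on the log2 scale, number 11 from the top of 56229 rows. JUNB, a weaker activator of the same family, measured 7.01 and 4.98 CPM in the DMSO pair, 4.90 in the low-dose and 14.2 in the high-dose library. It rose by 1.25 (SE 0.24, adjusted p = 9.98e-05 by edgeR), also on the log2 scale, as are the changes that follow.

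FOS, the partner of JUN proteins in AP-1, measured 2.97 and 1.49 CPM in the DMSO pair, 2.23 in the low-dose and 7.08 in the high-dose library. The DMSO pair differed 1.99-fold, yet the high-dose library lay above both. FOS rose by 1.69 (SE 0.29, adjusted p = 3.66e-06 by edgeR). ATF3, a stress-induced factor of the ATF family, measured 5.72 and 5.16 CPM in the DMSO pair, 5.86 in the low-dose and 18.3 in the high-dose library. With both DMSO values close together, its rise was 1.75 (SE 0.23, adjusted p = 2e-10 by edgeR).

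EGR1, a zinc-finger activator, measured 4.69 and 2.45 CPM in the DMSO pair, 3.97 in the low-dose and 12.8 in the high-dose library. Its mRNA rose by 1.86 (SE 0.26, adjusted p = 1.04e-09 by edgeR). KLF6, a zinc-finger factor of the Krüppel-like family, measured 3.24 and 3.34 CPM in the DMSO pair, 3.32 in the low-dose and 7.16 in the high-dose library, and rose by 1.12 (SE 0.28, adjusted p = 0.00857 by edgeR). For both genes the high-dose library was above every other.

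MYC, which drives growth and ribosome production, measured 75.8 and 59.9 CPM in the DMSO pair, 74.6 in the low-dose and 145 in the high-dose library. It had the lowest called change, 1.09 (SE 0.17, adjusted p = 3.17e-07 by edgeR). DUSP1 measured 8.77 and 8.11 CPM in the DMSO pair, 8.50 in the low-dose and 36.4 in the high-dose library, so the 3 lower libraries were nearly level. Second to JUN among the members, DUSP1 rose by 2.11 (SE 0.21, adjusted p = 2.85e-19 by edgeR).

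IER3 mRNA measured 2.97 and 1.91 CPM in the DMSO pair, 2.48 in the low-dose and 3.88 in the high-dose library. Its change of 0.68 (SE 0.31, adjusted p = 0.383 by edgeR) did not pass. JUND, the AP-1 subunit usually present without a stimulus, measured 23.6 and 13.5 CPM in the DMSO pair, 16.3 in the low-dose and 22.9 in the high-dose library. The high-dose value fell between the DMSO pair, and the change was 0.31 (SE 0.21, adjusted p = 0.657 by edgeR). DMSO 1 lay above DMSO 2 for 9 of the 10 mRNAs, and the share over all rows was not counted. Without RNA-seq DMSO 1, the changes of JUND and IER3 were 0.73 and 0.99, and without DMSO 2 they were -0.056 and 0.37.

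A kind with a DMSO library left out has no replicate of its own, and its spread is then taken from the DMSO pairs of the other kinds in a fit of all 12 libraries less that one. The common biological coefficient of variation was 11.8% for RNA-seq, 3.85% for monosome and 10.3% for disome libraries. At the high dose the RNA-seq rows called in either direction went from 623 to 5377 without DMSO 1 and 5188 without DMSO 2. JUND and IER3 passed without DMSO 1 (edgeR, adjusted p = 2.9e-05 and 0.00594) and not without DMSO 2 (edgeR, adjusted p = 0.863 and 0.406), and these calls are no test against RNA-seq replicates.

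**Figure D2:**
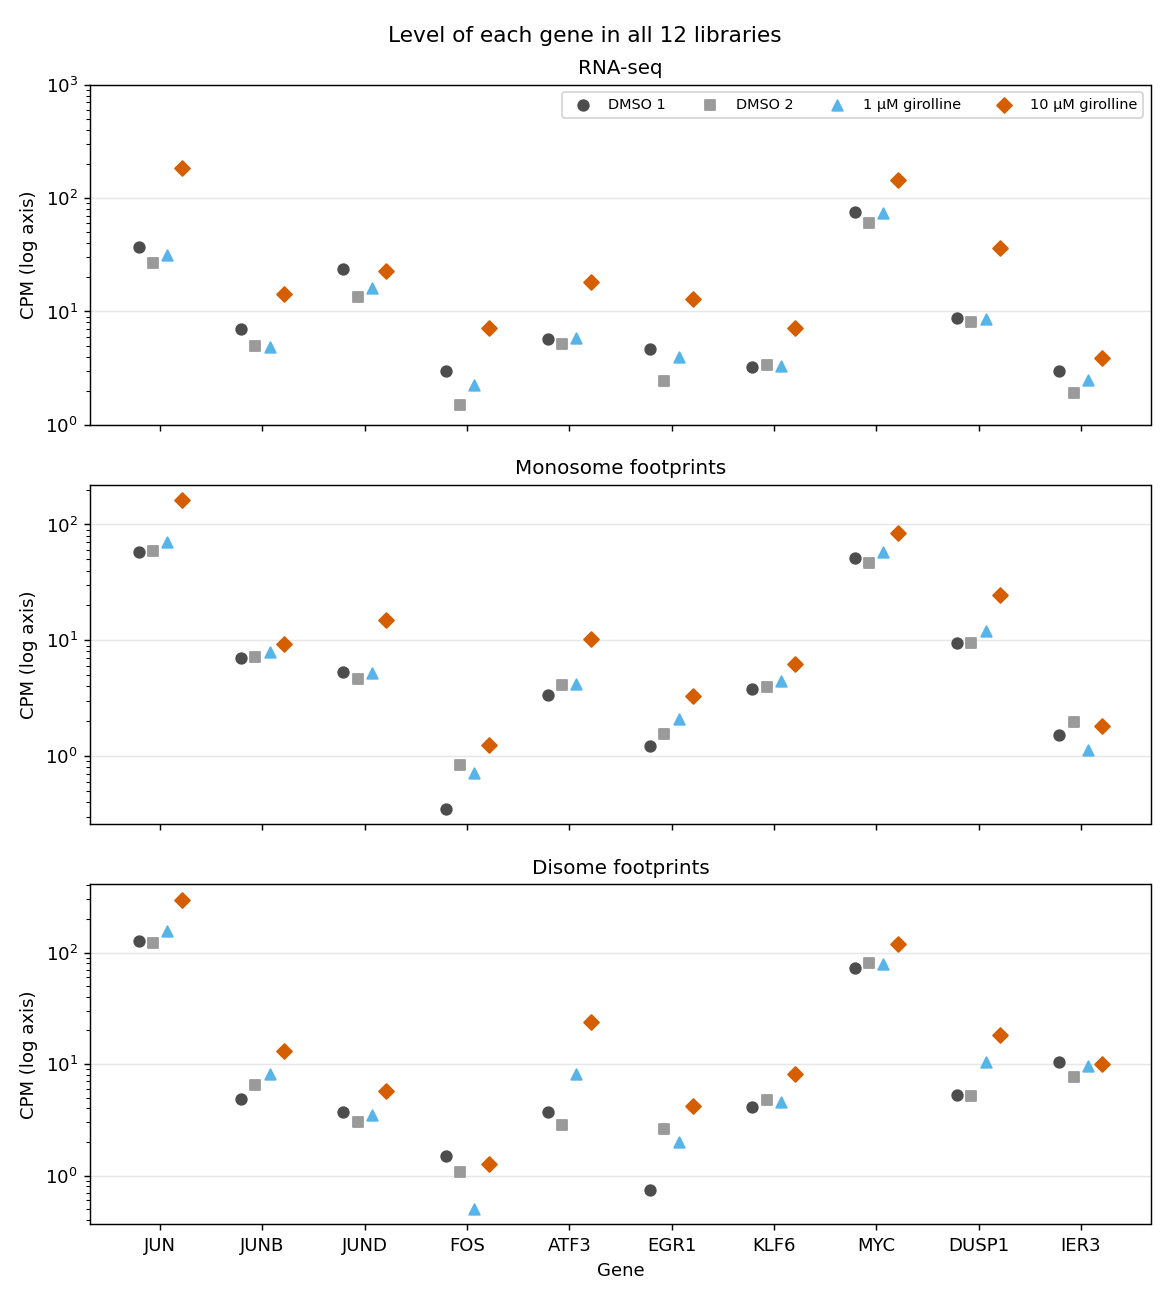
Level of each gene in all 12 libraries, in CPM on a log axis, with 1 panel per kind of library and 1 point per library. The 10 µM library stands apart for JUN in every panel, at 185, 162 and 296 CPM from top to bottom, and falls between the DMSO libraries for JUND in RNA-seq.

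At the low dose, edgeR called 0 of 10 mRNAs, 0 had an unadjusted p under 0.05 and DESeq2 called 0. Over all 56229 rows edgeR called 0% in either direction, and 557 rows had an unadjusted p under 0.05. The members' log2 fold changes ran from -0.28 to 0.18, with a median of 0.02. ATF3 alone of the 10 lay above both DMSO libraries, as did 27.6% of all rows, and 0 lay over 2-fold above both, as did 0.283%. JUND mRNA changed by -0.53 without RNA-seq DMSO 2 and by 0.26 without DMSO 1. The first was called lower (edgeR, adjusted p = 0.0356) in a fit with 1 RNA-seq library on each side, where the rows called went from 0 to 252.

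From the low to the high dose, 7 of 10 mRNAs rose: JUN, JUNB, FOS, ATF3, EGR1, MYC and DUSP1. Over all rows 0.219% were called higher and 0.208% lower. Between the doses JUN rose by 2.54 (SE 0.22, adjusted p = 2.64e-25 by edgeR) and DUSP1 by 2.10 (SE 0.26, adjusted p = 2.62e-11 by edgeR). KLF6 had 1.11 and missed the threshold (edgeR, adjusted p = 0.105), but passed in a fit of all 12 libraries (edgeR, adjusted p = 0.0176), which called 559 rows in place of 240. JUND had 0.49 and did not pass in either (edgeR, adjusted p = 0.712 and 0.406). DMSO libraries do not enter this contrast other than through the spread. Without RNA-seq DMSO 1 or 2, where 3229 and 3215 rows were called, JUND was called too, at 0.47.

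The second comparison asked whether ribosome occupancy of these coding regions changed. At the high dose, monosome footprints rose on 9 of 10 genes, the exception being IER3, and fell on 0. Over all 55409 rows, 16.6% were called higher and 15.7% lower. The members' median log2 fold change was 1.13, against 0.01 over all rows. Of the members, 9 lay above both DMSO libraries, as did 42.9% of all rows. JUN, JUND, ATF3, EGR1 and DUSP1, 5 in all, lay over 2-fold above both, as did 2.82% of all rows.

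Monosome footprints of JUN measured 58.2 and 58.5 CPM in the DMSO pair, 71.2 in the low-dose and 162 in the high-dose library. The DMSO pair were nearly equal, either dose lay above them, and the high-dose rise was 1.47 (SE 0.07, adjusted p = 1.14e-40 by edgeR). JUND measured 5.32 and 4.61 CPM in the DMSO pair, 5.26 in the low-dose and 14.9 in the high-dose library. Its rise was 1.59 (SE 0.14, adjusted p = 5.57e-19 by edgeR), although its mRNA was not called. With all libraries that was the highest value of the members, but without monosome DMSO 2 JUND had 1.49, below ATF3 at 1.62 and FOS at 1.82. DUSP1 measured 9.54 and 9.44 CPM in the DMSO pair, 12.1 in the low-dose and 24.4 in the high-dose library, with a rise of 1.36 (SE 0.11, adjusted p = 3.41e-21 by edgeR).

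ATF3 footprints measured 3.36 and 4.13 CPM in the DMSO pair, 4.20 in the low-dose and 10.3 in the high-dose library, and rose by 1.45 (SE 0.15, adjusted p = 5.39e-14 by edgeR). Those of MYC measured 51.4 and 46.9 CPM in the DMSO pair, 58.0 in the low-dose and 84.6 in the high-dose library, and rose by 0.79 (SE 0.07, adjusted p = 1.33e-17 by edgeR). For both genes the high-dose library was above every other.

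The other 4 called members carried fewer footprints or had smaller changes. EGR1 counts were 28 and 42 in the DMSO pair, 35 in the low-dose and 104 in the high-dose library, a rise of 1.25 (SE 0.24, adjusted p = 1.04e-05 by edgeR). FOS counts were 8 and 23 in the DMSO pair, 12 in the low-dose and 39 in the high-dose library, a rise of 1.01 (SE 0.38, adjusted p = 0.0297 by edgeR). KLF6 and JUNB measured 6.20 and 9.33 CPM in the high-dose library and at most 4.44 and 7.87 elsewhere. KLF6 rose by 0.68 (SE 0.17, adjusted p = 0.000755 by edgeR) and JUNB by 0.39 (SE 0.14, adjusted p = 0.0237 by edgeR). IER3 measured 1.53 and 1.97 CPM in the DMSO pair, 1.12 in the low-dose and 1.82 in the high-dose library, and its change was 0.04 (SE 0.27, adjusted p = 0.923 by edgeR).

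For EGR1, FOS, JUNB and KLF6 the call changed with the fit. The fit of all 12 libraries, with a wider spread for monosome rows, called 3442 rows higher in place of 9181, and in it FOS and JUNB did not pass (edgeR, adjusted p = 0.108 and 0.23). Without monosome DMSO 1 it called 1309 rows higher, and EGR1, FOS, JUNB and KLF6 did not pass (edgeR, adjusted p = 0.0668, 0.651, 0.581 and 0.293). Without DMSO 2 it called 1019, and FOS, JUNB and KLF6 did not pass (edgeR, adjusted p = 0.0624, 0.56 and 0.261). The fold of FOS itself moved, to 0.56 without DMSO 1 and 1.82 without DMSO 2. DESeq2 did not call JUNB or KLF6 (adjusted p = 0.541 and 0.338) and gave EGR1 and FOS no adjusted p. JUN, JUND, ATF3, MYC and DUSP1 passed in each of these fits and by DESeq2.

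At the low dose, monosome footprints rose on 1 of 10 members, JUN, at 1.22 times the DMSO mean, where 1.05% of all rows were called higher and 0.729% lower. JUN changed by 0.29 (SE 0.08, adjusted p = 0.0189 by edgeR). It was not called in the fit of all 12 libraries, with or without a monosome DMSO library (edgeR, adjusted p = 1 in each), nor by DESeq2 (adjusted p = 0.125). MYC and DUSP1 changed by 0.24 and 0.35 and did not pass (edgeR, adjusted p = 0.107 and 0.237). Of the 10 members, 7 lay above both DMSO libraries, as did 37.5% of all rows.

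From the low to the high dose, monosome footprints rose on 5 members (JUN, JUND, ATF3, MYC and DUSP1), where 5.79% of all rows were called higher and 6.34% lower. The MYC step of 0.55 was not called in the fit of all 12 libraries (edgeR, adjusted p = 0.0631), nor without monosome DMSO 1 or 2 (edgeR, adjusted p = 0.277 and 0.276).

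**Figure D3:**
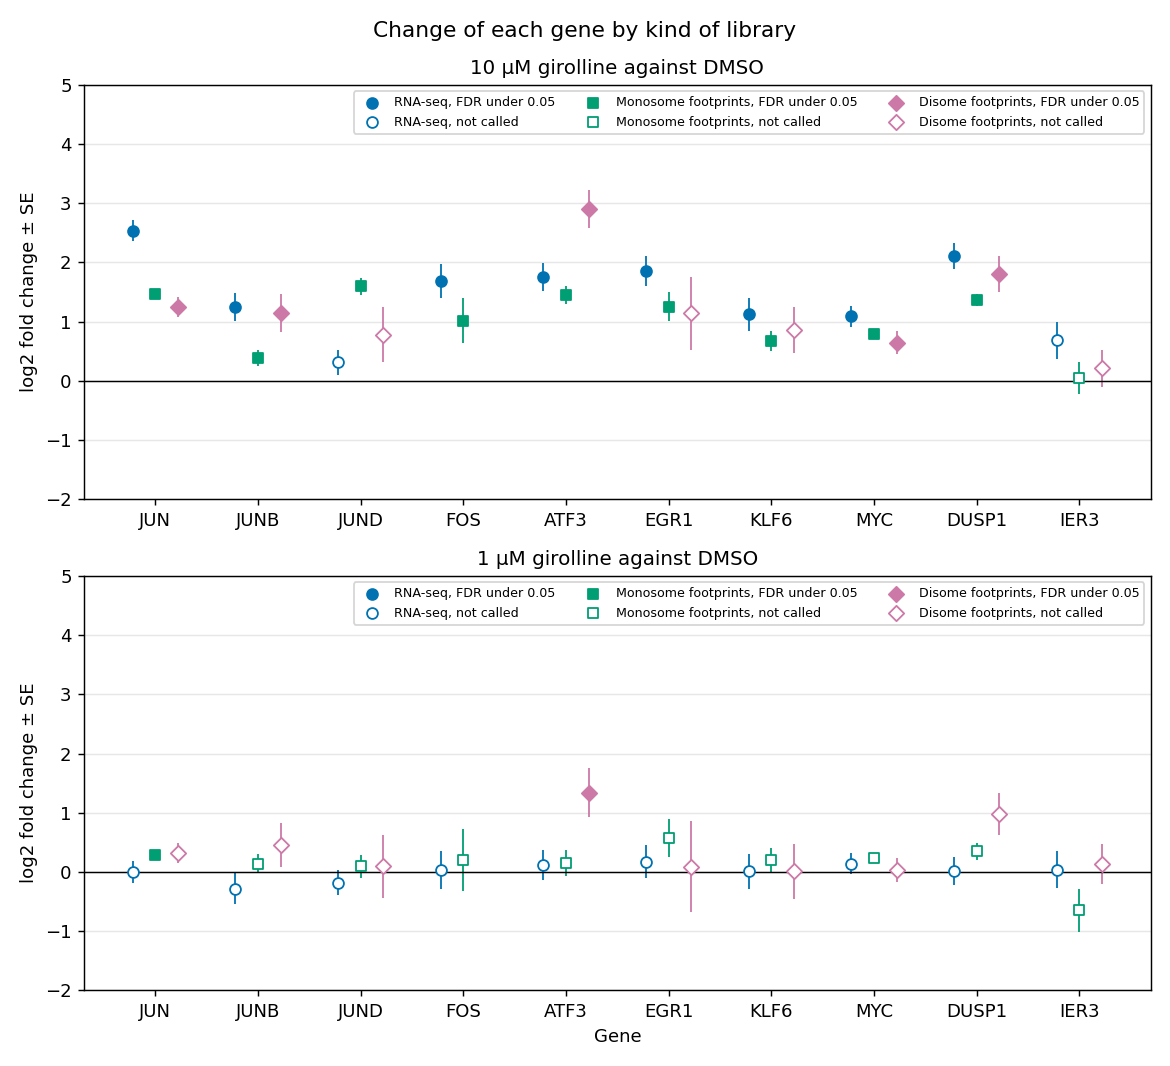
Log2 fold change with its SE for each gene in RNA-seq, monosome and disome libraries, at 10 µM in the upper and 1 µM in the lower panel. Filled points passed an FDR of 0.05 by edgeR. At 10 µM the highest point is ATF3 in disome footprints at 2.91, and at 1 µM the filled points are JUN in monosome footprints at 0.29 and ATF3 in disome footprints at 1.34. FOS was not tested in disome libraries.

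The third comparison asked on which of these coding regions footprints of adjoining ribosomes changed. At the high dose, disome footprints rose on 5 of 9 members tested, JUN, JUNB, ATF3, MYC and DUSP1, and fell on 0. Over all 34606 rows, 20.8% were called higher and 14.9% lower. The median log2 fold change of the 9 was 1.14, against -0.02 over all rows. FOS was too low to be tested, with disome counts of 4 and 5 in the DMSO pair, 2 in the low-dose and 6 in the high-dose library. Of all 10 members, 8 lay above both DMSO libraries, as did 42.5% of all rows, and 4 (ATF3, DUSP1, JUN and JUNB) lay over 2-fold above both, as did 14.9%.

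Disome counts of ATF3 were 10 and 13 in the DMSO pair, 32 in the low-dose and 114 in the high-dose library. In scaled terms it measured 3.74 and 2.82 CPM in the DMSO pair, 8.07 in the low-dose and 24.0 in the high-dose library, so the level was higher at each dose, at 2.46 and 7.33 times the DMSO mean. ATF3 rose by 2.91 (SE 0.32, adjusted p = 1.1e-17 by edgeR) at the high and 1.34 (SE 0.41, adjusted p = 0.0244 by edgeR) at the low dose. At the low dose it was the 1 called member of 9, where 5.39% of all rows were called higher and 1.68% lower. Above both DMSO libraries lay 4 of 10 members and 38.3% of all rows, and over 2-fold above both lay ATF3 and 4.7% of all rows. The low-dose call of ATF3 was lost without disome DMSO 1 or 2 (edgeR, adjusted p = 0.0784 and 0.31). At the high dose ATF3 passed without either.

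DUSP1 measured 5.23 and 5.21 CPM in the DMSO pair, 10.3 in the low-dose and 18.3 in the high-dose library for disome footprints. It rose by 1.81 (SE 0.31, adjusted p = 7.2e-08 by edgeR) at the high dose. Its low-dose change of 0.98 (SE 0.36, adjusted p = 0.071 by edgeR) missed the threshold. JUN measured 128 and 123 CPM in the DMSO pair, 156.3 in the low-dose and 296 in the high-dose library, a high-dose rise of 1.24 (SE 0.17, adjusted p = 2.04e-12 by edgeR). MYC measured 72.9 and 79.9 CPM in the DMSO pair, 78.4 in the low-dose and 119.9 in the high-dose library, a high-dose rise of 0.65 (SE 0.19, adjusted p = 0.00332 by edgeR). In these 3 genes the high-dose library lay above every other. DESeq2 called JUN but not DUSP1 or MYC at the high dose (adjusted p = 3.87e-05, 0.0809 and 0.152), and 1660 rows higher in place of 7196.

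JUNB disome counts were 13 and 30 in the DMSO pair, 32 in the low-dose and 62 in the high-dose library, a rise of 1.15 (SE 0.33, adjusted p = 0.00207 by edgeR). The call was lost without disome DMSO 1 (0.97, edgeR, adjusted p = 0.0614) and by DESeq2 (adjusted p = 0.362). KLF6, EGR1 and JUND changed by 0.86, 1.14 and 0.78 and did not pass (edgeR, adjusted p = 0.0705, 0.139 and 0.187). EGR1 rested on disome counts of 2 and 12 in the DMSO pair, 8 in the low-dose and 20 in the high-dose library. IER3 stayed within its DMSO range, with 10.5 and 7.60 CPM in the DMSO pair, 9.58 in the low-dose and 10.1 in the high-dose library, a change of 0.21 (SE 0.32, adjusted p = 0.636 by edgeR).

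From the low to the high dose, disome footprints rose on 2 of 9 members, ATF3 and JUN, where 7.7% of all rows were called higher and 4.36% lower. The steps were 1.57 (SE 0.33, adjusted p = 7.29e-05 by edgeR) for ATF3 and 0.92 (SE 0.20, adjusted p = 0.000135 by edgeR) for JUN. MYC had 0.61 and just missed the threshold (edgeR, adjusted p = 0.0508). It passed in the fit of all 12 libraries (edgeR, adjusted p = 0.0278), and there also without disome DMSO 1 or 2 (edgeR, adjusted p = 0.0337 and 0.0339).

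The last comparison set the kinds of library against each other in 1 fit of all 12, as the interaction of kind and dose over 48633 paired rows. At the high dose, monosome footprints changed less than mRNA on 3 members, JUN, JUNB and DUSP1, and more than mRNA on 1, JUND. Over all rows, 3.76% were called lower in this ratio and 5.83% higher. The members' median was -0.61 on the log2 scale, against 0.06 over all rows, and JUND was the 1 member above 0. Both ratios described here share the monosome libraries.

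For monosome relative to RNA-seq change, JUN had -1.05 (SE 0.19, adjusted p = 6.59e-05 by edgeR), JUNB -0.85 (SE 0.29, adjusted p = 0.0464 by edgeR) and DUSP1 -0.73 (SE 0.24, adjusted p = 0.042 by edgeR). JUND had 1.29 (SE 0.28, adjusted p = 0.000713 by edgeR). JUN had -1.28 without RNA-seq DMSO 1 and -0.84 without DMSO 2, and JUND 0.86 and 1.65. Those fits, with no RNA-seq replicate, called 9668 and 8572 rows in either direction in place of 4668, and those without monosome DMSO 1 or 2 called 1904 and 1559. JUN and JUND passed in all 4. By DESeq2, JUN passed, and JUND, JUNB and DUSP1 did not (adjusted p = 0.00538, 0.101, 0.244 and 0.142). JUNB and DUSP1 lost their calls without monosome DMSO 1 (edgeR, adjusted p = 0.203 and 0.248) or DMSO 2 (edgeR, adjusted p = 0.259 and 0.264). Without RNA-seq DMSO 1, EGR1 and MYC had -1.10 and -0.45, against -0.59 and -0.29 with all libraries, and were called in that fit (edgeR, adjusted p = 0.00866 and 0.0267). At the low dose edgeR called 0 of 10, 0 had an unadjusted p under 0.05 and DESeq2 called 0, where edgeR called 0.00617% of all rows higher.

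Disome footprints changed more than monosome footprints on 1 of 10 members at the high dose, ATF3, by 1.46 (SE 0.41, adjusted p = 0.00867 by edgeR). Over all rows 8.26% were called higher and 3.96% lower. The ATF3 call was lost without monosome DMSO 2 (1.29, edgeR, adjusted p = 0.0921) or disome DMSO 2 (1.25, edgeR, adjusted p = 0.132). JUNB, DUSP1, JUN and MYC had 0.76, 0.44, -0.23 and -0.15 and did not pass (edgeR, adjusted p = 0.225, 0.499, 0.529 and 0.742). At the low dose edgeR called 0 of 10, where it called 1.23% of all rows higher and 0.14% lower. DESeq2 called 0 there, but it gave ATF3, EGR1, FOS, IER3, JUNB, JUND and KLF6 no adjusted p. ATF3 alone had an unadjusted p under 0.05 there, at 1.20 (SE 0.49, adjusted p = 0.305 by edgeR). The counts hold no positions, so where on a coding region the footprints lay was not analysed here.

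**Figure D4:**
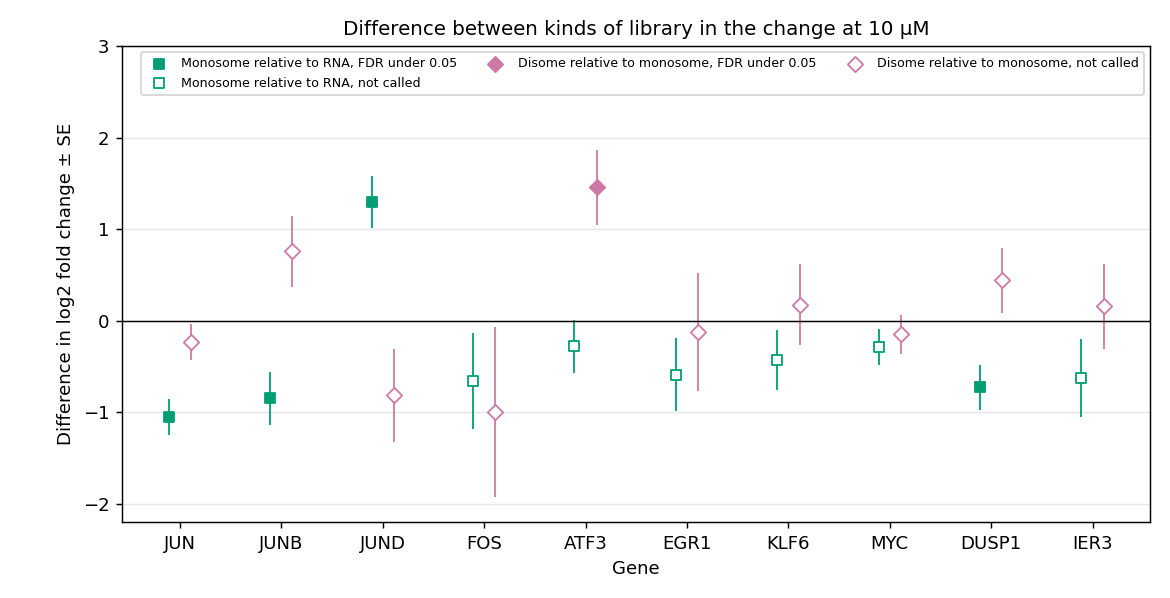
Difference in log2 fold change at 10 µM between kinds of library, with its SE, for each gene. Squares are monosome relative to RNA-seq and diamonds disome relative to monosome change, and filled points passed an FDR of 0.05 by edgeR. JUND stands alone above 0 among the squares, at 1.29, and ATF3 is the filled diamond, at 1.46.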

How the data were processed

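For every library the authors deposited raw counts of reads by transcript, beside a coding length. The submitters' processing notes name the build hg38 and the tools CASAVA 1.8 and STAR 2.7.0a, with no role; how reads were counted, and on which annotation, is not given in the sources used here. Judging by the values, the lengths are in codons, with 10 left out in monosome and 20 in RNA-seq tables. Rows with identical counts were merged within a fit. Tests used edgeR 4.0.16 in R 4.3.3 (TMM, filterByExpr, quasi-likelihood test, Benjamini-Hochberg over all rows, FDR 0.05). Each kind was fitted alone with 1 residual degree of freedom, from the DMSO pair, so a lone dose library is taken to vary as that pair does. Ratios of kinds used all 12 libraries with 3 residual degrees of freedom. TMM makes each change relative to the bulk of transcripts. An SE is the size of the log2 fold change divided by the square root of the F statistic.

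Alternatives were DESeq2 1.42.0, its size factors, other filters and row choices, a replicate block, and leaving out each DMSO library, the last in the fit of all 12. Members and motifs were chosen with earlier results of these data known, and all 10 members are named. No table used here pairs transcript IDs with symbols, so wider gene lists and cell type markers were not analysed here.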

Additional observations from a re-analysis of the deposited data

Results flagged for a closer look

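Between kinds of library, 5 changes at 10 µM differed by the interaction test. For monosome relative to RNA-seq, 5.83% of all rows were called higher and 3.76% lower. For disome relative to monosome, 8.26% were called higher and 3.96% lower, so 1 member of 10 called higher is close to the share of all rows. On the log2 scale, monosome relative to RNA-seq change was -1.05 for JUN, -0.85 for JUNB, -0.73 for DUSP1 and 1.29 for JUND, and disome relative to monosome change was 1.46 for ATF3. By edgeR, JUN and JUND passed with each of the 4 DMSO libraries of their ratio left out in turn, though a kind then has no replicate, and JUNB, DUSP1 and ATF3 did not. DESeq2 called JUN and ATF3 and not JUND, JUNB or DUSP1. For JUND, RNA-seq DMSO 1 lay 1.75-fold above DMSO 2.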

How the results depend on the processing

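Scaling edgeR by DESeq2 size factors, dropping the filter and keeping identical rows apart moved no count of called members by over 1.5 times. None of these turned a direction at 10 µM. Taking another nearby row of equal length could not change a result. Only ATF3 and MYC had such a row, and it held the same counts. Counts under other settings are given with the rows called higher over the whole table, since both moved. DESeq2 called, at 10 µM, 3 mRNAs (102 rows, against 302 by edgeR), 5 members by monosome (1292 against 9181) and 2 by disome footprints (1660 against 7196), and 1 by monosome relative to RNA-seq (931 higher and 797 lower, against 2837 and 1831). Between doses it called 3, 2 and 1 (50, 192 and 241 rows), and at 1 µM 0 by monosome and 0 by disome footprints (180 and 269). It gave 6 members in RNA-seq at 10 µM no adjusted p. Members with an adjusted p at 10 µM were 7 in monosome and 6 in disome libraries. In monosome relative to RNA-seq, EGR1 and FOS had none. Between doses such members were 4 in RNA-seq and 2 in monosome libraries, and JUN and MYC alone in disome libraries. At 1 µM they were 1 in monosome and 2 in disome libraries, and ATF3 had none in disome libraries. A mean of at least 10 CPM left out low genes. Under it, 3 mRNAs (339 of 19587 rows), 3 members by monosome (4417 of 16518) and 2 by disome footprints (4057 of 14506) were called at 10 µM, 3 mRNAs (152) and 3 members by monosome footprints (2210) between doses, 2 by monosome (710) and 0 by disome footprints (1447) at 1 µM, and 0 by disome relative to monosome (2630). The fit of all 12 libraries called 0 by monosome footprints at 1 µM (20 rows).

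Leaving out DMSO 1 or 2 left a kind with no replicate, and the spread came from the other kinds. Changes are therefore given here without counts of called members. In monosome footprints at 10 µM, EGR1 had 1.10 without DMSO 1 and 1.44 without DMSO 2. In the same order KLF6 had 0.64 and 0.71, JUNB 0.37 and 0.40 and FOS 0.56 and 1.82. JUNB had 0.97 and 1.44 in disome footprints. At 10 µM some changes not called with all libraries turned, and no turned value was called. JUND in RNA-seq ran -0.056 to 0.73 (lowest without DMSO 2, highest called without DMSO 1), IER3 -0.12 to 0.25 in monosome (lowest without DMSO 1) and -0.032 to 0.38 in disome footprints (lowest without DMSO 2), and FOS -1.20 to 0.15 in monosome relative to RNA-seq (0.15 without monosome DMSO 2). In disome relative to monosome, EGR1 ran -0.59 to 1.25 (0.031 without monosome DMSO 1, 1.25 without disome DMSO 2) and IER3 -0.074 to 0.34 (-0.06 without monosome DMSO 2, -0.074 without disome DMSO 2). At 1 µM only changes with an unadjusted p under 0.05 were followed in this way. JUND in RNA-seq, not among them, turned as well, from -0.53 (called) to 0.26. The cause was not tested.

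A replicate block, the DMSO number shared across kinds, left 4 members called in monosome relative to RNA-seq at 10 µM. Over all rows it called 3097 higher and 2089 lower, against 2837 and 1831. In disome relative to monosome it left 1 member, with 4171 rows higher and 2027 lower, against 4018 and 1927. At 1 µM it left 0 members in each, with 8 rows higher and 0 lower, and 754 and 93. Over 14702 transcripts, deviations of same-numbered DMSO libraries correlated at 0.24 between RNA-seq and disome, but at -0.0959 and 0.0346 between monosome and each of these, and the numbers were not taken as pairs. Depth limits EGR1 and FOS most in disome libraries, where their DMSO counts ran from 2 to 12. Disome counts in the DMSO pair were also low for ATF3 (10 and 13), JUND (10 and 14), KLF6 (11 and 22), DUSP1 (14 and 24), JUNB (13 and 30) and IER3 (28 and 35).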
